A study of Arabidopsis thaliana with 24 samples.

Results

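The genes described here are the cell wall loosening enzymes of the alpha-expansin and xyloglucan endotransglucosylase/hydrolase (XTH) families in whole Arabidopsis thaliana seedlings. They are 19 alpha-expansins (EXPA1 to EXPA18 and EXPA20) and 22 XTH genes, in all 41 of the 32833 loci in the count tables. The expansin loci are EXPA1 AT1G69530, EXPA2 AT5G05290, EXPA3 AT2G37640, EXPA4 AT2G39700, EXPA5 AT3G29030, EXPA6 AT2G28950, EXPA7 AT1G12560, EXPA8 AT2G40610, EXPA9 AT5G02260, EXPA10 AT1G26770, EXPA11 AT1G20190, EXPA12 AT3G15370, EXPA13 AT3G03220, EXPA14 AT5G56320, EXPA15 AT2G03090, EXPA16 AT3G55500, EXPA17 AT4G01630, EXPA18 AT1G62980 and EXPA20 AT4G38210. The XTH loci are XTH4 AT2G06850, XTH5 AT5G13870, XTH6 AT5G65730, XTH7 AT4G37800, XTH8 AT1G11545, XTH9 AT4G03210, XTH15 AT4G14130, XTH16 AT3G23730, XTH17 AT1G65310, XTH18 AT4G30280, XTH19 AT4G30290, XTH20 AT5G48070, XTH21 AT2G18800, XTH22 AT5G57560, XTH23 AT4G25810, XTH24 AT4G30270, XTH25 AT5G57550, XTH27 AT2G01850, XTH28 AT1G14720, XTH30 AT1G32170, XTH31 AT3G44990 and XTH33 AT1G10550. Poly(A) RNA was sequenced from 24 libraries in 8 groups of 3 replicates, all in the Col-0 background and 4 days old. The agb1 seedlings carry a mutation in AGB1, which encodes the G protein beta subunit; the allele is not named in the labels. The groups were agb1 with 40 µM N-linolenoylethanolamine (NAE 18:3, a fatty acid amide), agb1 with 0.2% DMSO as the solvent, wild type (WT) with NAE 18:3 and WT with DMSO, each taken after 1 h and after 3 h. Seedlings had grown in shaken liquid medium with 1% sucrose at 21 °C, and each treated dish of 20 mL held 515 of them. The labels state no other allele or agent for any group.

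Expansins are small secreted proteins that loosen the wall at acid pH without cutting its polymers, and plant cells use them to enlarge. XTH enzymes cut xyloglucan, the hemicellulose that coats cellulose, and rejoin the cut end to another chain or, in a few members, to water. Single members serve particular cells: EXPA7 and EXPA18 are root hair expansins, EXPA10 acts in leaf growth, EXPA14 and EXPA17 in lateral roots and EXPA2 in germinating seeds. XTH17 to XTH20 are closely related genes expressed in roots, XTH22 is the touch-induced gene TCH4, XTH24 is MERI5B and XTH15 is XTR7. Growth-promoting hormones such as auxin and brassinosteroid are known to raise many members, and touch raises others.

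Library totals ran from 18.0 to 61.9 M (mega) counts at 1 h. At 3 h agb1 libraries held 36.0 to 51.9 M counts and WT libraries 20.0 to 25.8 M. Levels below are CPM, counts scaled to library size with TMM factors. A gene is called changed when edgeR's quasi-likelihood F test gave an adjusted p under 0.05 after Benjamini-Hochberg correction over every locus tested. Every adjusted p below comes from that test. Library numbers are the replicate numbers of the labels. Fold changes are log2 values of NAE over DMSO or of agb1 over WT. Nothing in the labels says whether replicates came from separate cultures, so the p-values measure the spread between these samples. Of the 41 members, 37 passed the low-count filter at each time. EXPA2, EXPA12 and EXPA17 passed it at neither, XTH25 passed at 3 h only and EXPA20 at 1 h only.

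Transcript of AGB1 (AT4G34460), the mutated gene, was present in every agb1 library, at 42.5 to 54.8 CPM at 1 h and 22.1 to 35.4 CPM at 3 h, against 51.1 to 64.1 CPM and 47.2 to 112 CPM in WT libraries. The tables therefore do not tell agb1 from WT by absence of this transcript. Root, root hair and green-tissue markers were detected in all 8 groups, with no marker at 0 in any group, and the 4 seed storage markers summed to at most 2.17 CPM in any library. In bulk RNA, fewer cells of a type and less RNA per cell cannot be told apart, and this holds for every value below. One WT DMSO library at 1 h, replicate 2, had the lowest total and held 1.18% plastid and 1.74% mitochondrial counts.

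After 3 h of NAE 18:3 most of the measured members had changed, and more had fallen than had risen. In agb1 4 members rose and 19 fell; of all 20672 loci tested, 50.5% were called in that comparison, 24.5% higher and 26% lower. In WT 10 members rose and 19 fell, beside 58.5% of all loci called, 29.4% higher and 29.1% lower. The members' share of falls, 51.4% of those tested in both genotypes, stood above the share over all loci, and their median log2 fold change was -0.47 in agb1, against -0.03 over all loci, and -0.69 in WT, against 0.00 over all loci. The members were chosen with earlier results of these data known, so this excess may follow from the choice and carries no test. Of the tested XTH genes outside the members 12.5% fell in each genotype. Of the tested other expansins 16.7% fell in agb1 and 33.3% in WT. The agb1 and WT effects rest on separate DMSO libraries. In both genotypes XTH18, XTH22, XTH23 and XTH30 rose. Likewise 17 fell in both: EXPA1, EXPA3, EXPA5, EXPA6, EXPA8, EXPA11, EXPA13, XTH4, XTH6, XTH7, XTH8, XTH9, XTH16, XTH25, XTH28, XTH31 and XTH33. XTH15 was called in both genotypes with opposite signs. NAE and DMSO libraries at 3 h also differed in how a locus's level in a library, relative to its mean over the 12 libraries, went with its exon length. Over 18020 loci that share these libraries, Spearman's rho was -0.172 to -0.0824 in agb1 NAE and 0.0604 to 0.11 in agb1 DMSO libraries, and -0.232 to 0.013 in WT NAE and 0.0903 to 0.14 in WT DMSO libraries. The treatments did not overlap, and the part of exon length in the members' changes was not tested.

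**Figure D1:**
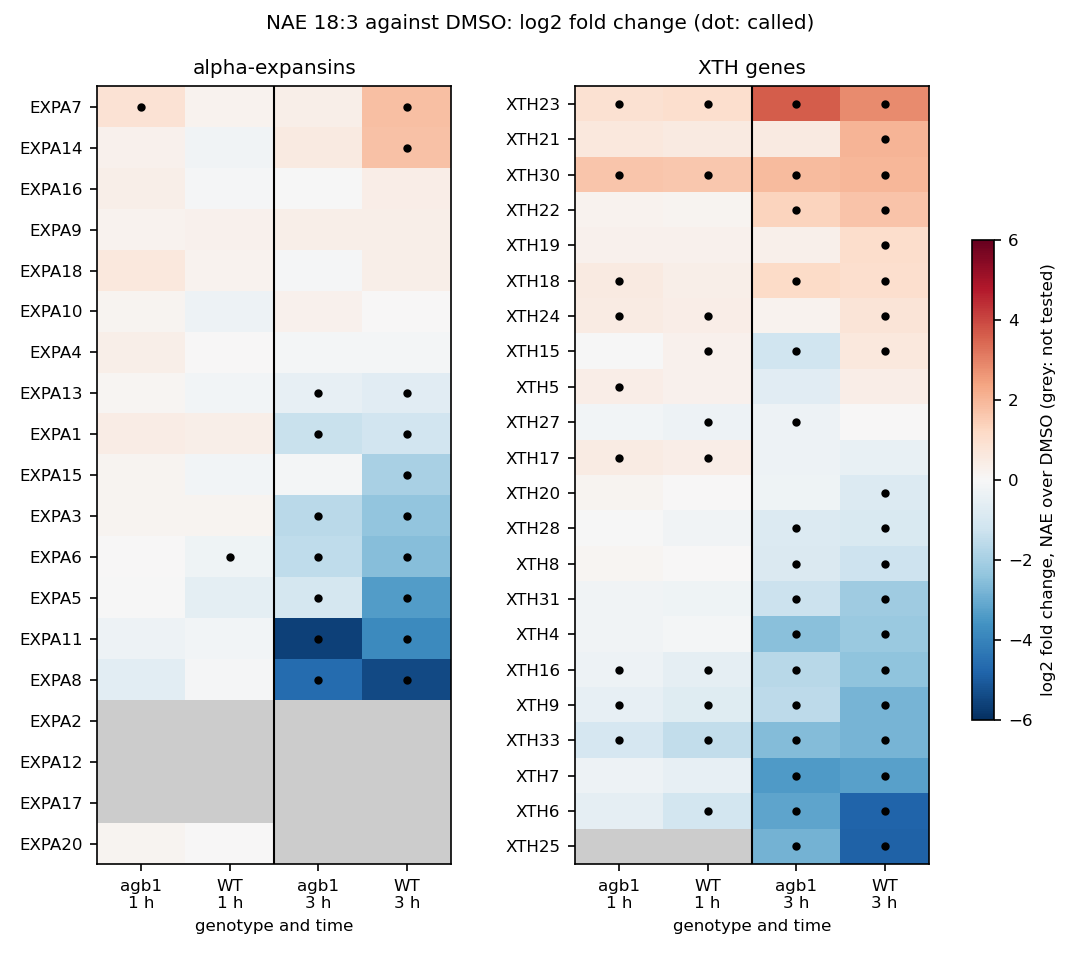
Log2 fold changes of NAE 18:3 over DMSO for the 19 alpha-expansins and the 22 XTH genes (rows, ordered by the WT value at 3 h) in agb1 and WT at 1 h and 3 h (columns). Colour runs from -6 (blue) to 6 (red), a black dot marks a call at adjusted p under 0.05 and grey marks members not tested; at 3 h 19 members carry a call for a fall in each genotype, and 4 in agb1 and 10 in WT one for a rise.

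The largest rises at 3 h were in XTH23, an XTH gene also known as XTR6. XTH23 had 383, 356 and 392 CPM in agb1 NAE libraries, against 18.4, 36.9 and 36.8 CPM in agb1 DMSO libraries. In WT it had 335, 372 and 311 CPM in WT NAE libraries, against 51.0, 50.3 and 43.2 CPM in WT DMSO libraries. Every NAE library lay above every DMSO library in both genotypes, and the log2 fold change was 3.62 in agb1 (SE 0.22, adjusted p = 3.07e-08) and 2.82 in WT (SE 0.21, adjusted p = 1.43e-07). TCH4 (XTH22), the touch-induced member, reached 913, 1082 and 1129 CPM in agb1 NAE libraries, against 325, 376 and 528 CPM in agb1 DMSO libraries. XTH22 in WT had 876, 1067 and 934 CPM in WT NAE libraries, against 319, 245 and 307 CPM in WT DMSO libraries. NAE and DMSO libraries did not overlap, and the log2 fold change of XTH22 was 1.34 in agb1 (SE 0.17, adjusted p = 2.28e-05) and 1.72 in WT (SE 0.18, adjusted p = 1.74e-06).

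XTH30, which belongs to another branch of the family than XTH22 and XTH23, had 75.3, 69.8 and 89.6 CPM in agb1 NAE libraries, against 19.4, 16.4 and 28.0 CPM in agb1 DMSO libraries. WT seedlings had XTH30 at 78.5, 84.0 and 70.2 CPM in WT NAE libraries, against 18.8, 19.6 and 19.7 CPM in WT DMSO libraries. All 6 NAE libraries stood above all 6 DMSO libraries, with a log2 fold change of 1.88 in agb1 (SE 0.17, adjusted p = 7.09e-07) and 2.00 in WT (SE 0.17, adjusted p = 3.23e-07). For the root gene XTH18 the values were 285, 319 and 319.8 CPM in agb1 NAE libraries, against 105, 111 and 200.1 CPM in agb1 DMSO libraries. XTH18 had 229.5, 250.3 and 247 CPM in WT NAE libraries, against 130.5, 117 and 111 CPM in WT DMSO libraries. The groups were apart in both genotypes although agb1 DMSO replicate 3 was high, and the log2 fold change was 1.15 in agb1 (SE 0.19, adjusted p = 0.000264) and 1.02 in WT (SE 0.20, adjusted p = 0.000522). XTH18 shares 87.6% of its coding bases with XTH19, and 85.6% with each of XTH17 and XTH20. The longest identical run with XTH19 in the coding bases is 68 bases, shorter than the reads of 75 bases. Untranslated parts of the transcripts were not compared. How reads were assigned among these genes was not tested.

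In WT 6 more members rose at 3 h: EXPA7, EXPA14, XTH15, XTH19, XTH21 and XTH24. EXPA7, a root hair expansin, had 1.41, 1.27 and 1.42 CPM in agb1 NAE libraries, against 1.39, 0.387 and 1.41 CPM in agb1 DMSO libraries. EXPA7 in WT had 2.72, 1.60 and 2.83 CPM in WT NAE libraries, against 0.764, 1.10 and 0.194 CPM in WT DMSO libraries. The agb1 groups overlapped and the WT groups did not; the log2 fold change was 0.37 in agb1 (SE 0.49, adjusted p = 0.556) and 1.80 in WT (SE 0.54, adjusted p = 0.0112), and the difference between these effects was -1.42 (SE 0.73, adjusted p = 0.316). EXPA18, the other root hair expansin, had 0.750, 1.00 and 1.54 CPM in agb1 NAE libraries, against 1.13, 0.924 and 1.45 CPM in agb1 DMSO libraries. For EXPA18 in WT the values were 2.14, 1.84 and 2.23 CPM in WT NAE libraries, against 1.75, 2.59 and 0.542 CPM in WT DMSO libraries. Its groups overlapped in both genotypes, and the log2 fold change was -0.08 in agb1 (SE 0.43, adjusted p = 0.898) and 0.35 in WT (SE 0.44, adjusted p = 0.513).

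The 10 other root hair markers summed to 52.9 to 58.6 CPM in agb1 NAE libraries, against 27.4 to 52.1 CPM in agb1 DMSO libraries, and to 80.3 to 91.6 CPM in WT NAE libraries, against 18.4 to 60.7 CPM in WT DMSO libraries. Of these markers 1 rose and 1 fell in agb1, and 3 rose and 0 fell in WT. The rises were 10% of the markers in agb1 and 30% in WT. Over all loci 24.5% were called higher in agb1 and 29.4% in WT, so the WT share of rises was near that of all loci. RHD2 (AT5G51060) alone averaged 34.5 ± 3.45 CPM in WT NAE and 11.6 ± 4.09 CPM in WT DMSO libraries (SD, n = 3 each). The part of the root hair markers in the EXPA7 result was not tested. EXPA7 also overlaps a locus on the opposite strand, AT1G12570, over 1.6% of its length, and that locus changed by -1.56 (SE 0.33, adjusted p = 0.00153) in agb1 and -2.74 (SE 0.42, adjusted p = 7.75e-05) in WT. AT1G12570 was low, averaging 0.546 ± 0.177 CPM in agb1 NAE and 1.61 ± 0.284 CPM in agb1 DMSO libraries. In WT it averaged 0.221 ± 0.107 CPM with NAE and 1.54 ± 0.315 CPM with DMSO (SD, n = 3 each). The part of this overlap in the EXPA7 result was not tested.

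XTH21, a gene needed for primary root growth, had 2.19, 2.85 and 2.76 CPM in agb1 NAE libraries, against 1.94, 0.874 and 2.62 CPM in agb1 DMSO libraries. For XTH21 in WT the libraries gave 2.95, 3.02 and 3.09 CPM in WT NAE libraries, against 1.24, 0.723 and 0.232 CPM in WT DMSO libraries. The agb1 groups overlapped and the WT groups were apart, and the log2 fold change was 0.53 in agb1 (SE 0.41, adjusted p = 0.302) and 2.03 in WT (SE 0.47, adjusted p = 0.00209). XTH24 (MERI5B), with the highest level per kb of exon among the XTH genes in every group at 3 h, had 914, 999 and 1104 CPM in agb1 NAE libraries, against 856, 724 and 1008 CPM in agb1 DMSO libraries. XTH24 in WT stood at 1018, 1150.0 and 872 CPM in WT NAE libraries, against 690.4, 449.7 and 613 CPM in WT DMSO libraries. The agb1 groups overlapped, WT NAE libraries lay above WT DMSO libraries, and the log2 fold change was 0.22 in agb1 (SE 0.17, adjusted p = 0.297) and 0.79 in WT (SE 0.17, adjusted p = 0.0012). Differences between the genotypes in these effects missed the threshold for XTH21 (-1.50, SE 0.62, adjusted p = 0.207) and for XTH24 (-0.57, SE 0.24, adjusted p = 0.211).

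EXPA14, a lateral root expansin, averaged 4.47 ± 0.342 CPM in agb1 NAE libraries and 3.05 ± 0.904 CPM in agb1 DMSO libraries (SD, n = 3 each), a log2 fold change of 0.56 (SE 0.31, adjusted p = 0.146). In WT it averaged 7.28 ± 3.18 CPM in WT NAE libraries and 2.12 ± 0.268 CPM in WT DMSO libraries (SD, n = 3 each), a rise of 1.77 (SE 0.33, adjusted p = 0.000395). XTH19 averaged 58.1 ± 13.8 CPM in agb1 NAE libraries and 47.8 ± 20.5 CPM in agb1 DMSO libraries (SD, n = 3 each), with 0.28 (SE 0.28, adjusted p = 0.432). In WT XTH19 averaged 73.9 ± 18.6 CPM in WT NAE libraries and 35.7 ± 3.08 CPM in WT DMSO libraries (SD, n = 3 each), a rise of 1.05 (SE 0.29, adjusted p = 0.0072). Both genes were therefore called in WT and not in agb1, and the difference between the genotypes was not called for EXPA14 (-1.21, SE 0.45, adjusted p = 0.159) or XTH19 (-0.77, SE 0.40, adjusted p = 0.329).

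Markers of root tissue moved in both directions at 3 h. Of 7 root markers 4 rose and 1 fell in agb1, and 3 rose and 1 fell in WT, with none at 0. Over all loci 24.5% rose and 26% fell in agb1, and 29.4% rose and 29.1% fell in WT. WOX5 (AT3G11260), which marks the quiescent centre of the root tip, averaged 21.3 ± 4.58 CPM in agb1 NAE and 1.69 ± 0.456 CPM in agb1 DMSO libraries, and 30.8 ± 8.92 CPM in WT NAE and 1.56 ± 0.502 CPM in WT DMSO libraries (SD, n = 3 each). The endodermis gene SCR (AT3G54220) was the marker that fell, with 31.4 ± 1.27 CPM in agb1 NAE and 66.8 ± 12.5 CPM in agb1 DMSO libraries, and 38.7 ± 1.42 CPM in WT NAE and 80.1 ± 5.67 CPM in WT DMSO libraries (SD, n = 3 each). Summed, the 7 markers reached 102 to 120.3 CPM in agb1 NAE, 88.7 to 127 CPM in agb1 DMSO, 111 to 141 CPM in WT NAE and 121 to 132 CPM in WT DMSO libraries, so that the sums overlapped between treatments. The part of the root markers in the rises of EXPA7, EXPA14, XTH18, XTH19 and XTH21 was not tested.

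Among the expansins the deepest falls were in EXPA11 and EXPA8. EXPA11 had 1.53, 4.09 and 3.79 CPM in agb1 NAE libraries, against 194, 100.2 and 169 CPM in agb1 DMSO libraries. EXPA11 in WT had 7.29, 6.34 and 6.35 CPM in WT NAE libraries, against 90.1, 64.3 and 126 CPM in WT DMSO libraries. The treatments did not overlap in either genotype, with a log2 fold change of -5.61 in agb1 (SE 0.38, adjusted p = 1.02e-07) and -3.81 in WT (SE 0.35, adjusted p = 1.17e-06). EXPA8 had 0.115, 0.396 and 0.206 CPM in agb1 NAE libraries, against 6.61, 4.29 and 6.99 CPM in agb1 DMSO libraries. EXPA8 in WT had 0.143, 0.0593 and 0.0859 CPM in WT NAE libraries, against 2.44, 3.84 and 6.81 CPM in WT DMSO libraries. The 3 WT NAE libraries held 3, 1 and 2 reads of EXPA8, so its ratio is given with a 95% exact counting interval: 0.0414 (0.0272 to 0.0607) in agb1 and 0.0227 (0.00828 to 0.0499) in WT, which cover counting error only. Its fitted log2 fold change, -4.60 in agb1 (SE 0.45, adjusted p = 1.80e-06) and -5.42 in WT (SE 0.58, adjusted p = 3.00e-06), depends on the prior count.

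EXPA5, an expansin of the elongating hypocotyl that brassinosteroid raises, had 4.53, 3.75 and 4.15 CPM in agb1 NAE libraries, against 7.57, 9.53 and 8.36 CPM in agb1 DMSO libraries. EXPA5 in WT had 1.52, 1.19 and 2.79 CPM in WT NAE libraries, against 17.9, 24.6 and 15.9 CPM in WT DMSO libraries. NAE libraries lay below DMSO libraries in both genotypes, with a log2 fold change of -1.04 in agb1 (SE 0.23, adjusted p = 0.00202) and -3.38 in WT (SE 0.26, adjusted p = 1.46e-07). EXPA6 had 17.7, 17.1 and 13.2 CPM in agb1 NAE libraries, against 48.2, 43.6 and 44.8 CPM in agb1 DMSO libraries. EXPA6 in WT had 11.9, 10.1 and 11.1 CPM in WT NAE libraries, against 57.8, 71.1 and 64.3 CPM in WT DMSO libraries. It too was lower in every NAE library, with a log2 fold change of -1.51 in agb1 (SE 0.12, adjusted p = 2.93e-07) and -2.55 in WT (SE 0.13, adjusted p = 3.24e-09). The fall of each was larger in WT, as the test of the difference further on gives.

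EXPA3 had 14.7, 17.3 and 11.4 CPM in agb1 NAE libraries, against 42.7, 45.5 and 44.6 CPM in agb1 DMSO libraries. EXPA3 in WT had 6.15, 5.16 and 8.54 CPM in WT NAE libraries, against 32.2, 36.6 and 33.4 CPM in WT DMSO libraries. The treatments did not overlap, and the log2 fold change was -1.61 in agb1 (SE 0.16, adjusted p = 2.61e-06) and -2.35 in WT (SE 0.18, adjusted p = 1.05e-07). EXPA1, an expansin of guard cells and young organs, had 46.3, 48.3 and 40.2 CPM in agb1 NAE libraries, against 146, 64.5 and 132 CPM in agb1 DMSO libraries. EXPA1 in WT had 54.6, 63.0 and 42.0 CPM in WT NAE libraries, against 101, 115 and 141 CPM in WT DMSO libraries. All NAE values lay below all DMSO values, although agb1 DMSO replicate 2 was low, and the log2 fold change was -1.35 in agb1 (SE 0.25, adjusted p = 0.00069) and -1.16 in WT (SE 0.25, adjusted p = 0.00155).

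EXPA13 changed least among the expansins that fell, with -0.47 in agb1 (SE 0.15, adjusted p = 0.0186) and -0.69 in WT (SE 0.15, adjusted p = 0.00163), and its agb1 call was lost when agb1 DMSO library 2, or any one of agb1 NAE libraries 1 and 3 was left out (adjusted p from 0.0515 to 0.0829). EXPA15 averaged 13.9 ± 2.56 CPM in agb1 NAE libraries and 15.1 ± 5.80 CPM in agb1 DMSO libraries (SD, n = 3 each), with -0.12 (SE 0.32, adjusted p = 0.782). In WT EXPA15 fell (-1.95, SE 0.34, adjusted p = 0.000319) and averaged 7.15 ± 3.13 CPM in WT NAE libraries and 27.9 ± 7.09 CPM in WT DMSO libraries (SD, n = 3 each). The difference between the genotypes just missed the threshold for EXPA15 (1.83, SE 0.47, adjusted p = 0.0561). EXPA4, EXPA9, EXPA10, EXPA16 and EXPA18 were called in neither genotype, with log2 fold changes from -0.10 to 0.37 in agb1 and from -0.12 to 0.38 in WT. The expansins thus held both the deepest falls among the members and 5 that were not called.

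Among the XTH genes the fall of XTH7 had the smallest p in both genotypes. XTH7 had 17.2, 17.1 and 15.4 CPM in agb1 NAE libraries, against 155, 198 and 173 CPM in agb1 DMSO libraries. XTH7 in WT had 18.3, 21.1 and 16.8 CPM in WT NAE libraries, against 179.6, 187 and 175 CPM in WT DMSO libraries. Every NAE library stood far below every DMSO library, and the log2 fold change was -3.41 in agb1 (SE 0.12, adjusted p = 7.55e-10) and -3.27 in WT (SE 0.12, adjusted p = 3.92e-10). XTH6 had 1.47, 0.792 and 0.438 CPM in agb1 NAE libraries, against 7.65, 8.05 and 8.61 CPM in agb1 DMSO libraries. XTH6 in WT had 1.00, 1.36 and 0.386 CPM in WT NAE libraries, against 20.7, 28.1 and 26.6 CPM in WT DMSO libraries. The NAE values of the genotypes overlapped, DMSO values were lower in agb1 than in WT, and the log2 fold change was -3.18 in agb1 (SE 0.35, adjusted p = 5.93e-06) and -4.83 in WT (SE 0.38, adjusted p = 2.00e-07).

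XTH9, a gene of shoot apices and young tissue, had 20.8, 22.5 and 16.7 CPM in agb1 NAE libraries, against 63.4, 76.5 and 37.0 CPM in agb1 DMSO libraries. XTH9 in WT had 5.81, 6.28 and 11.6 CPM in WT NAE libraries, against 48.7, 63.8 and 50.8 CPM in WT DMSO libraries. The treatments were apart in both genotypes, with a log2 fold change of -1.56 in agb1 (SE 0.27, adjusted p = 0.000364) and -2.78 in WT (SE 0.29, adjusted p = 3.91e-06). XTH4, active in vascular tissue and the most abundant of the falling members per kb of exon under DMSO, averaged 76.9 ± 13.1 CPM in agb1 NAE libraries and 438 ± 80.9 CPM in agb1 DMSO libraries, and 84.1 ± 31.6 CPM in WT NAE libraries and 389 ± 49.6 CPM in WT DMSO libraries (SD, n = 3 each). Its log2 fold change was -2.51 in agb1 (SE 0.23, adjusted p = 1.53e-06) and -2.21 in WT (SE 0.23, adjusted p = 3.10e-06). XTH31, a member with hydrolase activity, had -1.28 in agb1 (SE 0.20, adjusted p = 0.000155) and -2.13 in WT (SE 0.21, adjusted p = 1.62e-06), and XTH33, which is held at the plasma membrane, had -2.62 in agb1 (SE 0.55, adjusted p = 0.00154) and -2.79 in WT (SE 0.66, adjusted p = 0.0027).

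XTH16, XTH8 and XTH28 also fell in both genotypes, XTH16 with -1.65 in agb1 (SE 0.22, adjusted p = 3.18e-05) and -2.40 in WT (SE 0.23, adjusted p = 1.10e-06). XTH8 had a log2 fold change of -0.86 in agb1 (SE 0.21, adjusted p = 0.00362) and -1.26 in WT (SE 0.21, adjusted p = 0.000191). The smallest of these falls was that of XTH28, with -0.82 in agb1 (SE 0.11, adjusted p = 3.18e-05) and -0.92 in WT (SE 0.11, adjusted p = 9.26e-06). Counts of XTH25 were few: 5 reads in the 3 agb1 NAE libraries against 54 in the agb1 DMSO libraries, and 2 in the WT NAE libraries against 82 in the WT DMSO libraries. The ratio was 0.13 in agb1 (95% exact counting interval 0.0407 to 0.323) and 0.0318 in WT (0.00378 to 0.118). XTH25 lies next to XTH22 on chromosome 5, and the neighbours moved in opposite directions in both genotypes.

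XTH20, of the root clade, had -0.26 (SE 0.28, adjusted p = 0.47) in agb1 and fell in WT (-0.82, SE 0.29, adjusted p = 0.0263), a call lost when any one of WT DMSO libraries 1 and 2, or WT NAE library 3 was left out (adjusted p from 0.0529 to 0.107). XTH27, expressed in developing xylem of leaves, fell in agb1 (-0.31, SE 0.11, adjusted p = 0.0316), a call lost when any one of agb1 DMSO libraries 1 and 3, or any one of agb1 NAE libraries 1 and 2 was left out (adjusted p from 0.0588 to 0.137); in WT it had 0.04 (SE 0.11, adjusted p = 0.755). XTH5 and XTH17 were called in neither genotype, with -0.67 and -0.33 in agb1 and 0.41 and -0.46 in WT. Of the root clade XTH17 to XTH20, then, XTH18 rose in both genotypes, XTH19 rose and XTH20 fell in WT, and XTH17 was not called.

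**Figure D2:**
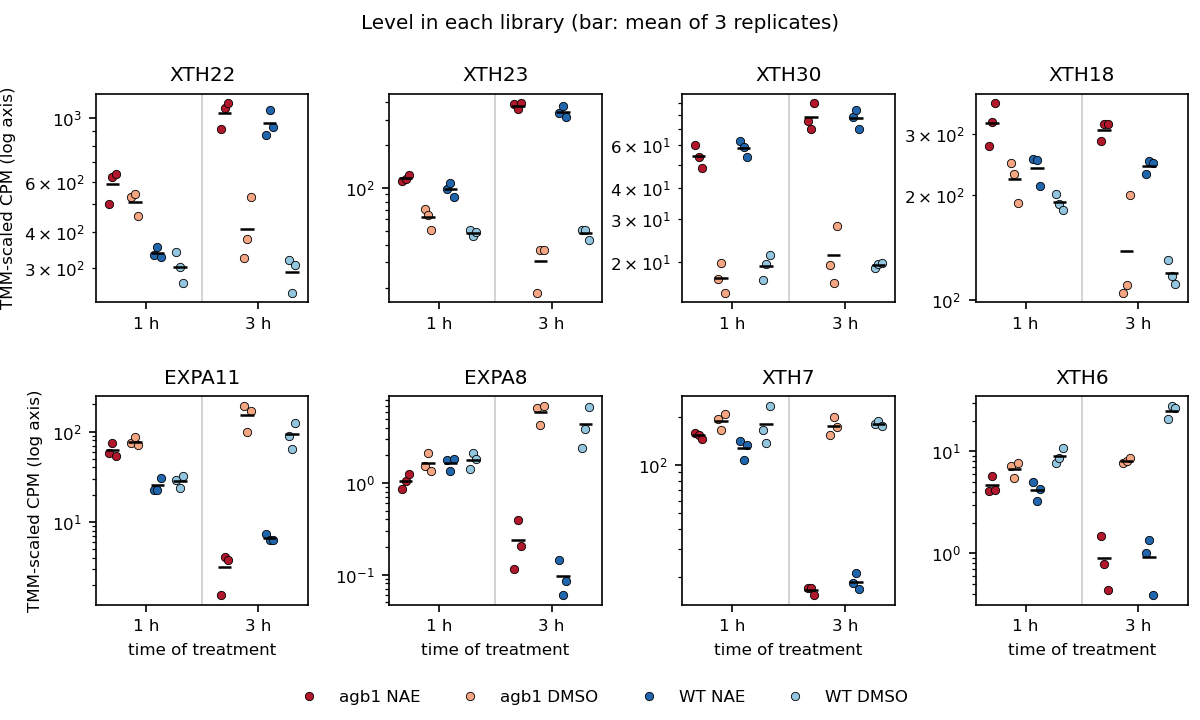
TMM-scaled CPM (log axis) of 4 members that rose and 4 that fell in both genotypes at 3 h, at 1 h and 3 h of treatment; each point is 1 library and each bar the mean of 3 replicates, in the order agb1 NAE, agb1 DMSO, WT NAE and WT DMSO within a time. At 3 h NAE and DMSO points do not overlap in any of the 8 panels, while at 1 h those of XTH22 and EXPA11 overlap in both genotypes.

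The family totals moved apart. The 19 expansins together summed to 274 ± 17.3 CPM in agb1 NAE libraries and 557 ± 96.1 CPM in agb1 DMSO libraries at 3 h, and to 293 ± 44.0 CPM in WT NAE libraries and 566 ± 54.6 CPM in WT DMSO libraries (SD, n = 3 each). The 22 XTH genes summed to 3182 ± 239 and 2557 ± 240.0 CPM in agb1 NAE and agb1 DMSO libraries, and to 3013 ± 221 and 2132 ± 171 CPM in WT NAE and WT DMSO libraries. Expansin sums were thus lower in every NAE library than in every DMSO library of the same genotype, and XTH sums higher, although 10 XTH genes fell in both genotypes.

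Per kb of exon, which allows genes to be compared, XTH18, XTH22, XTH23 and XTH24 made up 86.4% of the XTH level in agb1 NAE libraries, against 58.7% in agb1 DMSO libraries. WT libraries had 85.3% with NAE, against 51.1% with DMSO. XTH4, XTH7 and XTH31 together held 4.11% in agb1 NAE libraries, against 26.4% in agb1 DMSO libraries, and 4.00% in WT NAE libraries, against 30.6% in WT DMSO libraries. These sets were chosen after their values were seen and carry no test. The first 4 genes thus held most of the XTH level in every group at 3 h, and more of it with NAE.

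**Figure D3:**
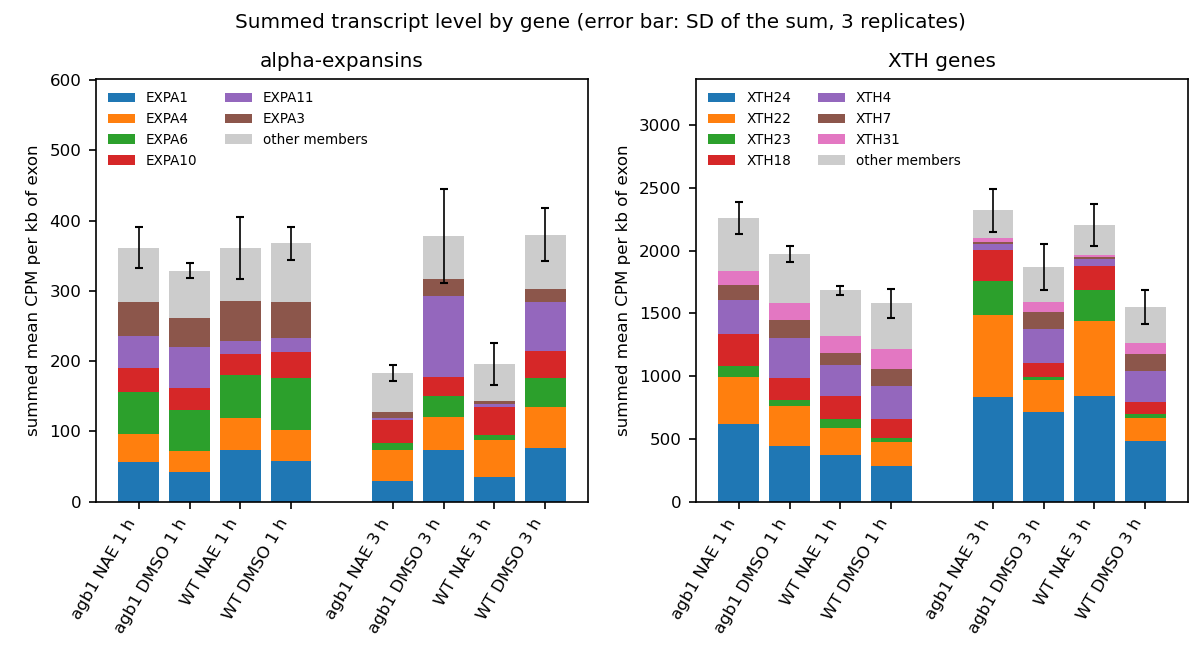
Summed mean level per kb of exon (CPM per kb) of the alpha-expansins and of the XTH genes in each of the 8 groups, split by gene; error bars are the SD of the sum over 3 replicates. At 3 h the expansin bars of the NAE groups are lower than those of the DMSO groups, and XTH22 and XTH23 take more in the XTH bars of the NAE groups and XTH4, XTH7 and XTH31 less.

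After 1 h of NAE 18:3 fewer members had changed, and nearly all of them were XTH genes. In agb1 7 members rose and 3 fell, beside 13.8% of all 21255 loci called, 8.89% higher and 4.92% lower. In WT 5 rose and 6 fell, beside 20.5% of all loci called, 12.4% higher and 8.02% lower. XTH17, XTH23, XTH24 and XTH30 rose and XTH9, XTH16 and XTH33 fell in both genotypes. Of the expansins 1 rose (EXPA7, in agb1) and 1 fell (EXPA6, in WT), and the members' median log2 fold change was 0.18 in agb1, against 0.00 over all loci, and 0.01 in WT, against -0.02 over all loci.

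XTH30 had the largest rise at 1 h. XTH30 had 60.2, 53.8 and 48.6 CPM in agb1 NAE libraries, against 16.9, 19.7 and 14.9 CPM in agb1 DMSO libraries. XTH30 in WT had 62.3, 59.3 and 54.0 CPM in WT NAE libraries, against 16.7, 19.6 and 21.4 CPM in WT DMSO libraries. NAE libraries were all above DMSO libraries, with a log2 fold change of 1.66 in agb1 (SE 0.11, adjusted p = 2.52e-07) and 1.61 in WT (SE 0.12, adjusted p = 2.55e-07). XTH23 had 112, 115 and 122 CPM in agb1 NAE libraries, against 71.1, 64.8 and 50.4 CPM in agb1 DMSO libraries. XTH23 in WT had 98.0, 108 and 86.3 CPM in WT NAE libraries, against 50.9, 46.0 and 48.7 CPM in WT DMSO libraries. Again no NAE library reached down to a DMSO library, and the log2 fold change was 0.91 in agb1 (SE 0.11, adjusted p = 4.76e-05) and 1.00 in WT (SE 0.11, adjusted p = 1.71e-05).

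XTH24 had 723, 846 and 689.8 CPM in agb1 NAE libraries, against 538, 584 and 493 CPM in agb1 DMSO libraries. XTH24 in WT had 452, 486 and 413 CPM in WT NAE libraries, against 387, 286 and 357 CPM in WT DMSO libraries. The treatments were apart in both genotypes, the change was small (0.48 in agb1, SE 0.12, adjusted p = 0.0101, and 0.39 in WT, SE 0.12, adjusted p = 0.0269), and the call was lost in agb1 when agb1 DMSO library 3, or agb1 NAE library 2 was left out (adjusted p from 0.0527 to 0.0557) and in WT when WT DMSO library 2, or any one of WT NAE libraries 1 and 2 was left out (adjusted p from 0.0529 to 0.122). XTH17, a gene of the root elongation zone, had 47.6, 52.0 and 60.1 CPM in agb1 NAE libraries, against 45.5, 32.7 and 36.3 CPM in agb1 DMSO libraries. XTH17 in WT had 36.7, 44.0 and 34.0 CPM in WT NAE libraries, against 29.5, 27.4 and 29.2 CPM in WT DMSO libraries. NAE libraries lay above DMSO libraries with 0.48 in agb1 (SE 0.12, adjusted p = 0.0193) and 0.41 in WT (SE 0.13, adjusted p = 0.0355), and the calls were lost in agb1 when any one of agb1 DMSO libraries 2 and 3, or agb1 NAE library 3 was left out (adjusted p from 0.0729 to 0.082) and in WT when any one of WT DMSO libraries 1, 2 and 3, or WT NAE library 2 was left out (adjusted p from 0.0676 to 0.158).

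XTH18 had 277, 324 and 367 CPM in agb1 NAE libraries, against 248, 229.8 and 189.7 CPM in agb1 DMSO libraries. XTH18 in WT had 254, 253 and 212 CPM in WT NAE libraries, against 201, 189 and 181 CPM in WT DMSO libraries. It was higher in every NAE library of both genotypes and was called in agb1 (0.54, SE 0.11, adjusted p = 0.0051) and not in WT (0.33, SE 0.12, adjusted p = 0.0563). EXPA7 had 4.70, 5.26 and 5.74 CPM in agb1 NAE libraries, against 2.84, 3.35 and 2.52 CPM in agb1 DMSO libraries. EXPA7 in WT had 3.11, 2.16 and 4.33 CPM in WT NAE libraries, against 2.29, 3.40 and 2.71 CPM in WT DMSO libraries. The agb1 groups were apart (0.86, SE 0.22, adjusted p = 0.0146), the WT groups overlapped (0.22, SE 0.23, adjusted p = 0.52), and the agb1 call was lost when any one of agb1 DMSO libraries 1 and 3, or agb1 NAE library 3 was left out (adjusted p from 0.0524 to 0.0654). EXPA7 was thus called in agb1 at 1 h and in WT at 3 h, and its genotype difference was called at neither time. Of the 7 root markers 3 rose and 0 fell in each genotype at 1 h, and of the 10 other root hair markers 2 rose and 0 fell. Over all loci 8.89% were called higher in agb1 and 12.4% in WT. The part of these markers in the rises of XTH17, XTH18 and EXPA7 was not tested.

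Among the members tested, XTH33 fell most at 1 h. XTH33 had 2.10, 2.13 and 2.49 CPM in agb1 NAE libraries, against 4.29, 5.33 and 3.87 CPM in agb1 DMSO libraries. XTH33 in WT had 1.13, 0.991 and 0.861 CPM in WT NAE libraries, against 2.47, 3.58 and 2.52 CPM in WT DMSO libraries. NAE libraries lay below DMSO libraries in both genotypes, with a log2 fold change of -0.997 in agb1 (SE 0.18, adjusted p = 0.00153) and -1.49 in WT (SE 0.20, adjusted p = 0.000102). XTH25, not tested at 1 h, held 10 reads in agb1 NAE and 25 in agb1 DMSO libraries, a ratio of 0.5 (95% exact counting interval 0.214 to 1.08), and 3 in WT NAE and 17 in WT DMSO libraries, a ratio of 0.182 (0.0342 to 0.629). XTH9 had 50.5, 57.5 and 67.3 CPM in agb1 NAE libraries, against 75.7, 78.8 and 89.3 CPM in agb1 DMSO libraries. XTH9 in WT had 61.9, 50.7 and 58.9 CPM in WT NAE libraries, against 97.6, 97.5 and 92.8 CPM in WT DMSO libraries. The groups did not overlap, and the log2 fold change was -0.47 in agb1 (SE 0.10, adjusted p = 0.00512) and -0.75 in WT (SE 0.10, adjusted p = 0.000112).

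XTH16 had 38.6, 43.2 and 45.6 CPM in agb1 NAE libraries, against 50.8, 49.1 and 56.2 CPM in agb1 DMSO libraries. XTH16 in WT had 27.9, 25.7 and 32.1 CPM in WT NAE libraries, against 42.8, 40.7 and 42.6 CPM in WT DMSO libraries. NAE values lay below DMSO values with -0.29 in agb1 (SE 0.09, adjusted p = 0.0339) and -0.56 in WT (SE 0.09, adjusted p = 0.000363), and the agb1 call was lost when any one of agb1 DMSO libraries 1 and 3, or any one of agb1 NAE libraries 1 and 2 was left out (adjusted p from 0.0647 to 0.154). XTH6 had 4.06, 5.74 and 4.15 CPM in agb1 NAE libraries, against 7.17, 5.46 and 7.67 CPM in agb1 DMSO libraries. XTH6 in WT had 5.00, 3.27 and 4.31 CPM in WT NAE libraries, against 7.72, 8.60 and 10.7 CPM in WT DMSO libraries. The agb1 groups overlapped (-0.56, SE 0.19, adjusted p = 0.0659) and the WT groups were apart (-1.11, SE 0.19, adjusted p = 0.0008).

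The remaining calls at 1 h were small. EXPA6 fell in WT (-0.27, SE 0.07, adjusted p = 0.015), a call lost when any one of WT NAE libraries 1 and 2 was left out (adjusted p from 0.0621 to 0.0852). XTH27 fell in WT (-0.30, SE 0.10, adjusted p = 0.0433), a call lost when any one of WT DMSO libraries 1 and 3, or any one of WT NAE libraries 2 and 3, or agb1 DMSO library 1, or any one of agb1 NAE libraries 2 and 3 was left out (adjusted p from 0.051 to 0.19). Both falls were slight, and neither call held throughout. XTH5 rose in agb1 (0.41, SE 0.12, adjusted p = 0.0346), a call lost when any one of agb1 DMSO libraries 1, 2 and 3, or any one of agb1 NAE libraries 2 and 3 was left out (adjusted p from 0.0774 to 0.132). XTH15 rose in WT (0.26, SE 0.08, adjusted p = 0.0263), a call lost when any one of WT DMSO libraries 1 and 2, or any one of WT NAE libraries 2 and 3 was left out (adjusted p from 0.0516 to 0.12). All 4 changes were under 0.5 on the log2 scale in size.

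Neither genotype had a call at 1 h for 23 tested members, among them EXPA1 (0.45 in agb1, SE 0.23, adjusted p = 0.252, and 0.35 in WT, SE 0.23, adjusted p = 0.309), EXPA18 (0.64 in agb1, SE 0.24, adjusted p = 0.0941, and 0.23 in WT, SE 0.24, adjusted p = 0.532) and XTH22 (0.21 in agb1, SE 0.11, adjusted p = 0.268, and 0.16 in WT, SE 0.11, adjusted p = 0.33). EXPA1 had 79.5, 60.9 and 123 CPM in agb1 NAE libraries, against 61.9, 59.0 and 71.9 CPM in agb1 DMSO libraries. EXPA1 in WT had 99.8, 101 and 140.4 CPM in WT NAE libraries, against 96.5, 88.6 and 83.1 CPM in WT DMSO libraries. The EXPA1 groups overlapped in agb1 and did not in WT. EXPA18 had 4.17, 3.62 and 3.68 CPM in agb1 NAE libraries, against 2.84, 2.45 and 2.02 CPM in agb1 DMSO libraries. EXPA18 in WT had 3.02, 2.64 and 5.60 CPM in WT NAE libraries, against 2.86, 3.35 and 3.45 CPM in WT DMSO libraries. EXPA18 was higher in each agb1 NAE library than in each agb1 DMSO library and overlapped in WT.

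The change of the NAE effect between 1 h and 3 h was tested in one fit of all 24 libraries, in which each NAE group is set against the DMSO group of its own time. In agb1 the effect moved up in 3 members and down in 19, beside 34.5% of all 21700 loci called, 17% up and 17.5% down. In WT it moved up in 7 and down in 17, beside 48% of all loci called, 25.2% up and 22.8% down. The downward moves in both genotypes included EXPA11 (-5.27 in agb1, SE 0.41, adjusted p = 1.47e-08, and -3.61 in WT, SE 0.41, adjusted p = 6.06e-07), XTH7 (-3.08 in agb1, SE 0.21, adjusted p = 8.29e-10, and -2.76 in WT, SE 0.21, adjusted p = 1.46e-09) and EXPA3 (-1.78 in agb1, SE 0.25, adjusted p = 9.82e-06, and -2.49 in WT, SE 0.26, adjusted p = 1.35e-07). Upward in both were XTH18, XTH22 and XTH23, the last by 2.72 in agb1 (SE 0.25, adjusted p = 4.42e-08) and 1.84 in WT (SE 0.25, adjusted p = 3.18e-06). XTH22 moved by 1.16 in agb1 (SE 0.21, adjusted p = 0.000209) and 1.59 in WT (SE 0.21, adjusted p = 2.77e-06). XTH30, already high at 1 h, showed no called change of its effect, with 0.24 in agb1 (SE 0.21, adjusted p = 0.41) and 0.42 in WT (SE 0.21, adjusted p = 0.104).

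XTH17 was the one member called higher at 1 h in both genotypes whose effect moved down by 3 h in both (-0.79 in agb1, SE 0.24, adjusted p = 0.0131, and -0.84 in WT, SE 0.24, adjusted p = 0.00734). The upward calls of XTH18 in agb1 and of XTH19 and XTH21 in WT were the least stable. They were lost in 20, 21 and 10 of the alternatives, with adjusted p of up to 0.133, 0.195 and 0.103. Levels themselves were not compared between times, because the tables differ in another way. Over the 125 loci with at least 70% of their length overlapped on the opposite strand and a summed mean above 1 CPM, the median log2 ratio of 3 h to 1 h was -1.08, against -0.18 over 14826 loci with no overlap. EXPA20 is overlapped over 87.1% of its length, had 26 to 41 reads per group at 1 h and was listed at 0 in all 12 libraries of 3 h. Neither a counting tool nor its strand setting is given in the sources used here, and the part of the strand setting was not tested.

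The genotype difference of the NAE effect, agb1 minus WT, was called for 3 members at 3 h, EXPA5 and EXPA6 upward and XTH15 downward, beside 2.97% of all 20672 loci called, 1.32% up and 1.65% down. At 1 h 0 members were called by edgeR and 0 by DESeq2, beside 0.0753% of all 21255 loci called by edgeR. An unadjusted p under 0.05 was found at 1 h for 5 of 37 tested members and for 1937 of all loci. EXPA5 fell by less in agb1 than in WT, and the difference was 2.34 (SE 0.35, adjusted p = 0.00482). Its DMSO levels also differed at 3 h: agb1 DMSO libraries had 7.57, 9.53 and 8.36 CPM, against 17.9, 24.6 and 15.9 CPM in WT DMSO libraries (-1.20, SE 0.22, adjusted p = 0.00245). Under NAE agb1 libraries had 4.53, 3.75 and 4.15 CPM, against 1.52, 1.19 and 2.79 CPM in WT libraries (1.14, SE 0.27, adjusted p = 0.00833). EXPA5 was therefore lower in agb1 than in WT under DMSO and higher under NAE, with no overlap either way.

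EXPA6 had the same order: 48.2, 43.6 and 44.8 CPM in agb1 DMSO libraries, against 57.8, 71.1 and 64.3 CPM in WT DMSO libraries (-0.50, SE 0.12, adjusted p = 0.0102). Under NAE it had 17.7, 17.1 and 13.2 CPM in agb1, against 11.9, 10.1 and 11.1 CPM in WT (0.54, SE 0.13, adjusted p = 0.00897). The difference between the effects was 1.04 (SE 0.17, adjusted p = 0.00772). Both genes fell in both genotypes, and the fall was smaller in agb1.

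XTH15 (XTR7, a gene that shade raises) moved in opposite directions. XTH15 had 7.15, 9.19 and 7.47 CPM in agb1 NAE libraries, against 13.5, 23.5 and 17.3 CPM in agb1 DMSO libraries. XTH15 in WT had 11.9, 9.48 and 10.7 CPM in WT NAE libraries, against 8.55, 6.46 and 5.46 CPM in WT DMSO libraries. It was lower in every agb1 NAE library than in every agb1 DMSO library (-1.19, SE 0.21, adjusted p = 0.000288) and higher in every WT NAE library than in every WT DMSO library (0.65, SE 0.21, adjusted p = 0.0186), and the difference was -1.84 (SE 0.30, adjusted p = 0.00642). The WT rise alone was lost when any one of WT DMSO libraries 2 and 3, or WT NAE library 1 was left out (adjusted p from 0.069 to 0.0756); the difference kept its call in each alternative run. XTH15 overlaps AT4G14120 on the opposite strand over 27.8% of its length. That locus changed by -0.84 (SE 0.37, adjusted p = 0.0742) in agb1 and -2.37 (SE 0.48, adjusted p = 0.000801) in WT, with a difference of 1.53 (SE 0.62, adjusted p = 0.193), the opposite direction to XTH15. AT4G14120 was low, averaging 0.832 ± 0.128 CPM in agb1 NAE and 1.48 ± 0.654 CPM in agb1 DMSO libraries. In WT it averaged 0.237 ± 0.0922 CPM with NAE and 1.28 ± 0.442 CPM with DMSO (SD, n = 3 each). Its part was not tested.

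**Figure D4:**
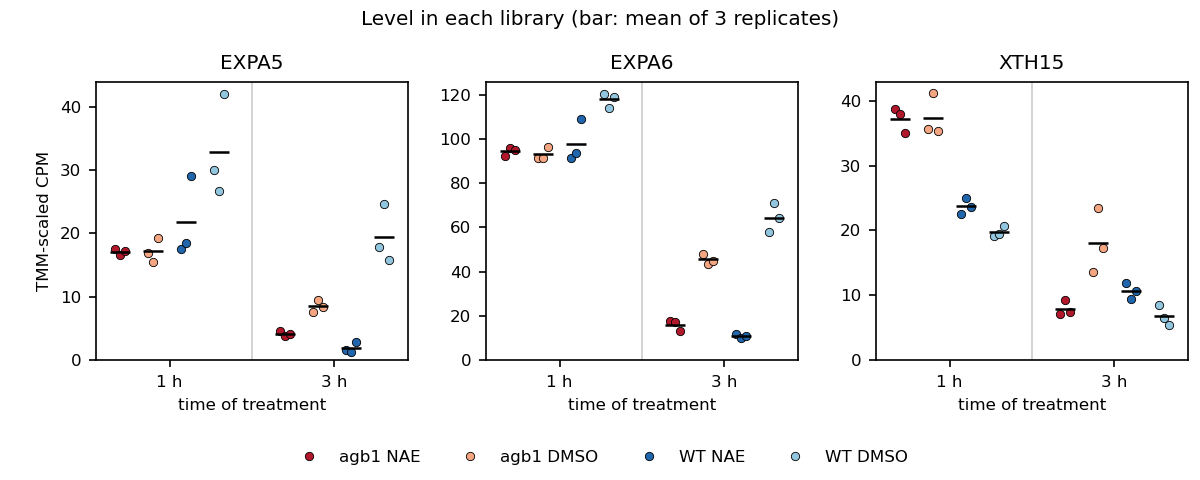
TMM-scaled CPM of EXPA5, EXPA6 and XTH15 in each library at 1 h and 3 h (linear axis from 0; bars are means of 3 replicates), in the order agb1 NAE, agb1 DMSO, WT NAE and WT DMSO. At 3 h EXPA5 and EXPA6 drop further with NAE in WT, where DMSO levels are higher, and XTH15 is lower with NAE in agb1 and higher with NAE in WT.

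Of the 37 tested members 16 had an unadjusted p under 0.05 for this difference at 3 h, beside 3969 of all 20672 loci. The 3 called members are among them, and a further 13 missed the threshold. The 2 nearest were EXPA15 (1.83, SE 0.47, adjusted p = 0.0561) and EXPA11 (-1.80, SE 0.47, adjusted p = 0.0611), with EXPA11 falling further in agb1. DESeq2 called 7 members upward and 2 downward where edgeR called 2 and 1, adding EXPA3, EXPA15, XTH6, XTH9 and XTH31 upward and EXPA11 downward. In a simulation of this comparison over 20483 loci, all but a small set of loci had equal levels in every group. There the test recovered 29.9% of the 67 loci changed 2-fold and 81.8% of the 66 changed 4-fold. In the data 613 loci were called, which changes the adjusted p, so these rates need not hold here. Calls also came with 1 library left out, at adjusted p from 0.0107 to 0.0453: EXPA11, EXPA15, XTH9 and XTH31 without agb1 DMSO library 2, EXPA3, EXPA14 and XTH9 without WT NAE library 3, and EXPA11 without WT DMSO library 3. An uncalled member is therefore not shown to respond alike in the genotypes. The green-tissue markers differed between the genotypes too: of 5 tested, 3 had a called upward difference, beside 1.32% of all loci. Under DMSO at 3 h all 5 were lower in agb1, beside 11.1% of all loci. Under NAE at 3 h 1 was higher and 1 lower, beside 9.24% and 13.7%. The markers summed to 12182 to 13611 CPM in agb1 NAE and 9904 to 11172 CPM in agb1 DMSO libraries. In WT the markers summed to 17439 to 21687 CPM in NAE and 16387 to 20591 CPM in DMSO libraries. Their part in the results on EXPA5, EXPA6 and XTH15 was not tested.

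**Figure D5:**
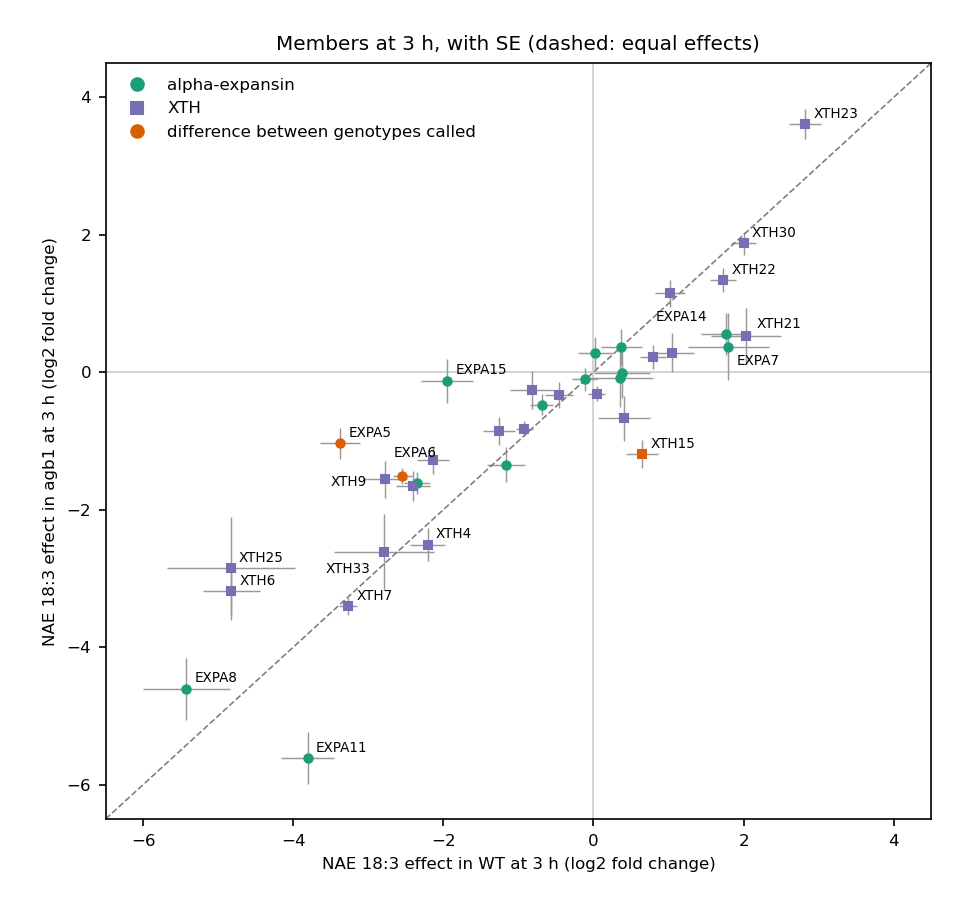
NAE 18:3 effect at 3 h (log2 fold change over DMSO) in agb1 (vertical) against WT (horizontal) for the 37 members tested; circles are alpha-expansins, squares XTH genes, bars are SE and the dashed line marks equal effects. The 3 orange points are the called differences: EXPA5 and EXPA6 lie above the line, and XTH15 lies below it with a fall in agb1 and a rise in WT.

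agb1 and WT seedlings also differed without NAE. Under DMSO at 1 h 7 members were higher and 4 lower in agb1, beside 11.4% of all loci called, 5.63% higher and 5.75% lower. The trend of relative level with exon length also separated these groups. Spearman's rho over 19451 loci was -0.0262 to 0.266 in agb1 DMSO and -0.376 to -0.0762 in WT DMSO libraries. The part of exon length in these calls was not tested. XTH15 had 35.7, 41.2 and 35.3 CPM in agb1 DMSO libraries, against 19.2, 19.4 and 20.7 CPM in WT DMSO libraries (0.92, SE 0.08, adjusted p = 2.17e-05). EXPA11 had 74.5, 87.9 and 70.4 CPM in agb1 DMSO libraries, against 28.9, 23.8 and 32.0 CPM in WT DMSO libraries (1.45, SE 0.16, adjusted p = 0.000308). XTH22 had 529, 544 and 456 CPM in agb1 DMSO libraries, against 341, 301 and 265 CPM in WT DMSO libraries (0.75, SE 0.11, adjusted p = 0.00106). None of these 3 genes overlapped between the genotypes. XTH16, XTH19, XTH24 and XTH33 were also higher, and EXPA4, EXPA5, EXPA6 and XTH20 lower. Of these calls EXPA5 was lost when any one of agb1 DMSO libraries 1 and 2 was left out (adjusted p from 0.0614 to 0.0664), and those of EXPA4, XTH16, XTH19 and XTH33 were lost in 3 to 6 alternatives (adjusted p from 0.055 to 0.129).

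Under NAE at 1 h 10 members were higher and 1 lower in agb1, beside 8.97% of all loci called, 4.08% higher and 4.89% lower. The same 3 genes had the smallest p. XTH15 had 38.7, 37.95 and 35.0 CPM in agb1 NAE libraries, against 22.6, 24.9 and 23.7 CPM in WT NAE libraries (0.65, SE 0.08, adjusted p = 0.000144). EXPA11 had 58.3, 75.0 and 53.6 CPM in agb1 NAE libraries, against 22.7, 22.6 and 30.5 CPM in WT NAE libraries (1.30, SE 0.16, adjusted p = 0.000405). XTH22 had 502, 622 and 640.1 CPM in agb1 NAE libraries, against 333, 354 and 326 CPM in WT NAE libraries (0.80, SE 0.11, adjusted p = 0.000501). Again the genotypes did not overlap. XTH5, XTH16, XTH17, XTH18, XTH19, XTH24 and XTH33 were the other higher members and XTH20 the lower one, so that 9 of the 10 were XTH genes. The calls of XTH5, XTH17, XTH18, XTH19 and XTH20 were lost in 5 or 6 alternatives each (adjusted p from 0.0507 to 0.131).

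Some root markers were also higher in agb1 at 1 h, beside 4.08% of all loci called higher under NAE and 5.63% under DMSO. Of 7, 3 were higher and 0 lower under NAE, and 2 were higher and 0 lower under DMSO; of the 10 other root hair markers 2 were higher and 0 lower under each. The root aquaporin TIP2;3 (AT5G47450) averaged 15.8 ± 2.21 CPM in agb1 NAE and 6.12 ± 1.5 CPM in WT NAE libraries, and 9.47 ± 1.27 CPM in agb1 DMSO and 3.04 ± 0.799 CPM in WT DMSO libraries (SD, n = 3 each). The root gene CASP1 (AT2G36100) was not called and averaged lower in agb1, with 20.9 ± 2.52 CPM in agb1 NAE and 25.9 ± 8.34 CPM in WT NAE libraries. Under DMSO CASP1 averaged 17.1 ± 1.55 CPM in agb1 and 25.9 ± 8.0 CPM in WT libraries (SD, n = 3 each). The 7 markers summed to 136 to 147 CPM in agb1 NAE and 109 to 138 CPM in WT NAE libraries, and to 109 to 126 CPM in agb1 DMSO and 102 to 122 CPM in WT DMSO libraries. These sums overlapped between the genotypes under each treatment. Their part in the higher XTH17, XTH18 and XTH19 of agb1 was not tested.

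At 3 h the members' calls between the genotypes, 8 of 37 under DMSO and 7 of 37 under NAE, were near the share over all loci. Under DMSO 3 were higher (XTH15, XTH24, XTH28) and 5 lower in agb1 (EXPA5, EXPA6, XTH6, XTH23, XTH25), beside 19% of all loci called, 7.84% higher and 11.1% lower. XTH15 was at 13.5, 23.5 and 17.3 CPM in agb1 DMSO libraries, against 8.55, 6.46 and 5.46 CPM in WT DMSO libraries (1.41, SE 0.21, adjusted p = 0.0005). XTH6 was at 7.65, 8.05 and 8.61 CPM in agb1 DMSO libraries, against 20.7, 28.1 and 26.6 CPM in WT DMSO libraries (-1.63, SE 0.29, adjusted p = 0.00188). Neither gene overlapped between the genotypes. The calls of XTH23, XTH24, XTH25 and XTH28 in this comparison were each lost in 5 to 12 alternatives (adjusted p from 0.0501 to 0.224).

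Under NAE at 3 h 6 members were higher (EXPA3, EXPA5, EXPA6, XTH9, XTH28, XTH31) and 1 lower in agb1 (XTH27), beside 22.9% of all loci called, 9.24% higher and 13.7% lower. EXPA3 had 14.7, 17.3 and 11.4 CPM in agb1 NAE libraries, against 6.15, 5.16 and 8.54 CPM in WT NAE libraries (1.12, SE 0.18, adjusted p = 0.000681). XTH9 had 20.8, 22.5 and 16.7 CPM in agb1 NAE libraries, against 5.81, 6.28 and 11.6 CPM in WT NAE libraries (1.33, SE 0.29, adjusted p = 0.00611). XTH27 had 56.9, 49.8 and 58.5 CPM in agb1 NAE libraries, against 83.7, 76.6 and 75.9 CPM in WT NAE libraries (-0.52, SE 0.11, adjusted p = 0.00561). None of the 3 overlapped between the genotypes. The 6 higher members had all fallen with NAE in both genotypes; the XTH31 call was lost when WT NAE library 3, or any one of agb1 NAE libraries 1 and 3 was left out (adjusted p from 0.0653 to 0.073).

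EXPA2, EXPA12 and EXPA17 were too low to test. EXPA17 held 17 reads in agb1 NAE libraries and 20 in agb1 DMSO libraries at 3 h, a ratio of 1.2 (95% exact counting interval 0.588 to 2.4), and 4 in WT NAE libraries and 71 in WT DMSO libraries, a ratio of 0.0733 (0.0195 to 0.196). EXPA2 held 3 reads in agb1 NAE libraries and 19 in agb1 DMSO libraries, a ratio of 0.222 (0.0421 to 0.755), and 0 in WT NAE libraries and 16 in WT DMSO libraries, a ratio of 0 whose interval reaches up to 0.338. EXPA12 held 10 reads in agb1 NAE libraries and 3 in agb1 DMSO libraries, a ratio of 4.69 (1.21 to 26.5), and 9 in WT NAE libraries and 2 in WT DMSO libraries, a ratio of 5.86 (1.21 to 55.7). These intervals cover counting error only and leave out the spread between replicates. The lateral root gene EXPA17 varied widely among WT libraries, with 1.02, 1.48 and 0.155 CPM under DMSO.

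Sequence upstream of the members was read to show what the genes that moved differently have in common or not. The 250 bases before each annotated start were taken from the RefSeq annotation of TAIR10.1; the count tables are on TAIR10 and hold no coordinates. Each promoter was searched on both strands for 7 short motifs, counted once per promoter, and a match is a description of letters only. Capitals mark a motif or its reverse complement. EXPA5 and EXPA6, whose falls were smaller in agb1, are shown because both carry the auxin response element TGTCTC, in capitals, and EXPA6 also CGCGT, a core of calmodulin-binding activator sites. EXPA5 lies at chr3:11013452-11013701 (minus strand) and EXPA6 at chr2:12433797-12434046 (minus strand).
EXPA5: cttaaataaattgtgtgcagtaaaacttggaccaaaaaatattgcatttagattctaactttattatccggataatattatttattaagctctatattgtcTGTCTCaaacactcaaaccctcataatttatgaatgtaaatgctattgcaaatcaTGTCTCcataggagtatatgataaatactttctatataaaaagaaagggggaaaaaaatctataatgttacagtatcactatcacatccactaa
EXPA6: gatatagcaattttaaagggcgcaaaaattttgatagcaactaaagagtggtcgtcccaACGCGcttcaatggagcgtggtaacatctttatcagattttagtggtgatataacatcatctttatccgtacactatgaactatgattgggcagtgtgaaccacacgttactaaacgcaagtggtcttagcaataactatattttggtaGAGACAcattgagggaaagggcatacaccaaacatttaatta
XTH15, with the opposite genotype difference, lies at chr4:8138393-8138642 (minus strand) and held none of the 7 motifs in this window.
XTH15: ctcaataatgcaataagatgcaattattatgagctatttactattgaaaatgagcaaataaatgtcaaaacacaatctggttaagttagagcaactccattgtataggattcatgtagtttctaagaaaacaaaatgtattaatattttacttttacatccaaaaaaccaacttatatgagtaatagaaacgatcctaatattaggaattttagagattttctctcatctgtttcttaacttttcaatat
The neighbours XTH22, which rose, and XTH25, which fell, lie at chr5:23308681-23308930 (minus strand) and chr5:23306441-23306690 (minus strand). Capitals mark a W-box (TTGACC or TTGACT) in XTH22 and CACATG in XTH25.
XTH22: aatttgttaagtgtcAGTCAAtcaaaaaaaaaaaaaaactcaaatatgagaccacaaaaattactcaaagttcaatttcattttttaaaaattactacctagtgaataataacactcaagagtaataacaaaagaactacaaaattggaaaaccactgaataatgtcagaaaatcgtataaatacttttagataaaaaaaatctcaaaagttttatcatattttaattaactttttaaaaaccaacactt
XTH25: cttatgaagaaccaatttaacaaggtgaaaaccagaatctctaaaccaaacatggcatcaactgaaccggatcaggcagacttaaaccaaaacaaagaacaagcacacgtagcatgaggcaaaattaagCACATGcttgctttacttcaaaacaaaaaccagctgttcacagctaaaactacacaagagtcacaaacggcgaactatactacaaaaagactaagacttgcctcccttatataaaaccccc

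TGTCTC stood in 5 of the 41 members' promoters (12.2%), namely EXPA5, EXPA6, EXPA7, EXPA10 and XTH6, against 10.9% of all 27443 protein-coding promoters. The E-box variant CACATG stood in 11 of 41 (26.8%), against 11.1% of all, among them EXPA1, EXPA11, XTH18 and XTH25. The W-box stood in 9 of 41, against 28.4% of all, and in 2 of the 4 members that rose in both genotypes, XTH18 and XTH22. The G-box CACGTG stood in 0 of 41, against 6.49%. The brassinosteroid response element CGTGCG stood in 2, EXPA7 and EXPA18, the pair of root hair expansins (4.88% against 1.57%). TGACGT stood in 2 (4.88% against 7.69%) and CGCGT in 4 (9.76% against 6.87%). CACATG can overlap its own reverse complement, and no test was made of these shares.

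Other wall genes at 3 h moved as follows, beside 24.5% of all loci called higher and 26% lower in agb1, and 29.4% higher and 29.1% lower in WT. Of 8 tested XTH genes outside the members, 1 rose and 1 fell in agb1, and 3 rose and 1 fell in WT. XTH32 (AT2G36870) fell, with -1.81 (SE 0.16, adjusted p = 7.04e-07) in agb1 and -2.90 (SE 0.17, adjusted p = 1.22e-08) in WT, and XTH29 (AT4G18990) rose, with 2.34 (SE 0.38, adjusted p = 0.000157) and 2.67 (SE 0.38, adjusted p = 4.13e-05). Of 6 tested other expansins 2 rose and 1 fell in agb1, and 2 rose and 2 fell in WT; the expansin-like gene EXLA3 (AT3G45960) had 2.64 (SE 0.35, adjusted p = 3.07e-05) in agb1 and 2.10 (SE 0.36, adjusted p = 0.000219) in WT. Of 3 touch genes 3 rose in agb1 and 2 in WT, with TCH3 (AT2G41100), a calmodulin-like gene, at 1.69 (SE 0.17, adjusted p = 2.95e-06) and 2.31 (SE 0.18, adjusted p = 1.26e-07). XTH22, itself a touch gene, rose in both genotypes as well. The first 2 lists hold few genes, and their counts are not read as differing from those shares.

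Of 11 cellulose synthesis genes 0 rose in either genotype, while 5 fell in agb1 and 7 in WT, CESA5 (AT5G09870) with -1.47 (SE 0.16, adjusted p = 5.95e-06) in agb1 and -2.18 (SE 0.17, adjusted p = 1.30e-07) in WT. Of 11 pectin enzymes 1 rose and 4 fell in agb1, and 1 rose and 5 fell in WT, the pectin methylesterase PME3 (AT3G14310) with -1.52 (SE 0.11, adjusted p = 1.33e-07) and -1.66 (SE 0.11, adjusted p = 4.50e-08). Of 9 genes of xyloglucan synthesis and trimming 2 rose and 3 fell in each genotype: the xylosidase XYL1 (AT1G68560) fell (-1.14 in agb1, SE 0.12, adjusted p = 3.89e-06, and -1.45 in WT, SE 0.12, adjusted p = 2.96e-07), and the xylosyltransferase gene named XT1 in RefSeq (AT3G62720) rose (0.99 in agb1, SE 0.11, adjusted p = 7.32e-06, and 1.10 in WT, SE 0.11, adjusted p = 2.13e-06). These counts, 22.2% higher and 33.3% lower in each genotype, were near the shares over all loci. Of 6 tested acid growth genes 0 rose, and 5 fell in agb1 and 4 in WT, the plasma membrane proton pump gene HA2 (AT4G30190) with -0.87 (SE 0.14, adjusted p = 0.000226) in agb1 and -0.39 (SE 0.14, adjusted p = 0.0331) in WT. Of 9 wall integrity genes 3 rose and 4 fell in agb1, and 4 rose and 4 fell in WT, the wall-associated kinase WAK2 (AT1G21270) with -1.95 (SE 0.19, adjusted p = 1.59e-06) and -2.72 (SE 0.20, adjusted p = 9.13e-08). The median log2 fold change was -0.15 in agb1 and -0.50 in WT for cellulose synthesis, -0.26 and -0.21 for pectin enzymes, 0.13 and 0.12 for xyloglucan genes and -1.90 and -1.36 for acid growth genes, against -0.03 in agb1 and 0.00 in WT over all loci.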

How the data were processed

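Stranded poly(A) libraries (paired reads of 75 bases) of whole seedlings were sequenced, and the authors deposited 1 table of raw counts per gene locus for each time, 12 libraries each. Per the submitters' processing notes, STAR was the aligner and TAIR10 the genome build; the counting tool and strand setting are not given in the sources used here. The authors also deposited normalized values (signal: counts divided by a size factor), which matched the raw counts within 0.01 after multiplying back and were used only to check the columns.

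Groups came from the labels. edgeR 4.0.16 (R 4.3.3) fitted the 4 groups of each time, and all 24 libraries for the change between times, with filterByExpr (minimum count 10, total 15), TMM scaling and the robust quasi-likelihood F test. Calls are at a Benjamini-Hochberg adjusted p under 0.05 over all loci. DESeq2 1.42.0, RLE scaling, no filter, a replicate block, only the 6 libraries compared and each library left out were alternatives. The scripts were tested on simulated data. Levels were compared within a time only.

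The members and lists were chosen with earlier results of these data known. Values in every library are given for the 4 largest called rises and falls per NAE comparison among members averaging at least 1 CPM, the 3 called members with the smallest p per genotype comparison, and EXPA1, EXPA7, EXPA18, XTH15, XTH22 and XTH24. Of every other list at most the 2 loci with the smallest p are named. All 41 members matched RefSeq. Intervals on counts cover counting error only.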

Additional observations from a re-analysis of the deposited data

Results flagged for a closer look

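The effect of NAE 18:3 at 3 h differed between agb1 and WT, by the interaction term of edgeR's fit, for EXPA5 (2.34 on the log2 scale, agb1 minus WT), EXPA6 (1.04) and XTH15 (-1.84). EXPA5 and EXPA6 fell in all 3 agb1 NAE libraries and all 3 WT NAE libraries relative to DMSO, and XTH15 fell in the agb1 libraries and rose in the WT libraries.

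The effect also differed between 3 h and 1 h within a genotype. In agb1 it moved up in 3 members and down in 19, with EXPA5 at -1.01, EXPA6 at -1.51 and XTH15 at -1.17 on the log2 scale. In WT it moved up in 7 members and down in 17, with EXPA5 at -2.74 and EXPA6 at -2.25.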

How the results depend on the processing

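Of 8394 member values recomputed under 29 settings, 8060 kept their side of the threshold, 212 lost a call and 122 gained one. A change of sign was counted only where the main or the alternative run made a call, and 0 such changes occurred. With DESeq2 the genotype difference of the NAE effect at 3 h called 7 members upward (2 by edgeR), 2 downward (1) and 1394 of all loci (613), and at 1 h 82 of all loci (16). DESeq2 also called 5 members higher in agb1 under DMSO at 3 h (3) and 2 lower under NAE at 3 h (1). With only the 6 libraries compared, agb1 against WT at 3 h called 2466 of all loci under DMSO (3921) and 2 members lower under NAE (1).

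Leaving out 1 library at a time, NAE in agb1 at 1 h called 3 to 9 members higher. NAE in WT at 1 h called 2 to 7 members higher, 4 to 12 lower and 2684 to 4600 of all loci. For agb1 against WT at 1 h, DMSO gave 4 to 9 higher, 2 to 5 lower and 851 to 2734 of all loci, and NAE gave 6 to 11 higher, 0 to 1 lower and 1071 to 2039 of all loci. At 3 h, DMSO gave 1 to 5 higher, 3 to 7 lower and 2503 to 4374 of all loci, and NAE gave 1 to 3 lower and 2812 to 5280 of all loci. The genotype difference called 1 to 32 of all loci at 1 h, and at 3 h 2 to 5 members upward, 1 to 2 downward and 189 to 1394 of all loci. The cause was not tested.

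Replicate numbers did not pair the samples: no comparison had same-numbered libraries correlating above 0.1 in every pair. With the replicate block, agb1 against WT under NAE at 1 h called 0 members lower (1 without it), and NAE at 3 h called 4 members higher and 19 lower in agb1 and 10 and 20 in WT. EXPA2, EXPA12 and EXPA17 held too few reads to be tested at either time.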
